A study of Mus musculus with 7 samples.

Results

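Of a list of 10 genes of the p53 network and the Bcl2 family, 9 were found by symbol among the 12071 gene symbols of the deposited expression table, and the values of these 9 are described over 7 daily libraries. For a symbol with more than 1 transcript, the transcript with the highest mean was used. The 9 genes are Trp53, Mdm2, Ccng1, Bbc3, Bax, Bak1, Bcl2l1, Bcl2l11 and Mcl1, and Bcl2 itself was not analysed here. The cells were of CCE, a line of mouse embryonic stem cells kept feeder-free on gelatin. On day 0 they were in medium with leukemia inhibitory factor (LIF) and received DMSO, and on days 1 to 6 LIF was withdrawn and retinoic acid was present at 5 µM. Each day had 1 library of ribosomal-RNA-depleted total RNA, and nothing in the labels tells separate cultures from repeated sampling of one. The effects of LIF withdrawal, of retinoic acid and of time cannot be told apart.

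The transcription factor p53, encoded by Trp53, is kept low by the ubiquitin ligase Mdm2, whose gene p53 itself activates, so that the pair forms a feedback loop. Ccng1 (cyclin G1) and Bbc3 (Puma) are direct p53 targets, and Bax is one in many cells. Bax and Bak1 open the outer mitochondrial membrane, Bcl2, Bcl2l1 (Bcl-x) and Mcl1 hold them back, and the BH3-only proteins Bbc3 and Bcl2l11 (Bim) bind and neutralise those guardians. Mouse embryonic stem cells are known for abundant Trp53 transcript and for a low threshold to apoptosis.

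The promoters of 4 of the 9 genes held a match to the p53 half-site consensus, and these stretches are shown because p53 binds such sequences. All 9 genes were matched in a RefSeq table of promoters on GRCm38.p6, with windows of 300 bases from 250 before the start site to 50 after it. A half-site lay in the windows of Ccng1, Mdm2, Bax and Trp53, which is 44.4% of the 9 genes, while 9.55% of all 27025 genes of that table had one. The consensus is its own reverse complement, so both strands were searched. Each stretch of 100 bases is on the strand of its gene, with the half-site in capitals. The half-site begins 185 bases before the start site in Ccng1 (stretch at chr11:40755417-40755516, minus strand), 186 in Mdm2 (chr10:117710890-117710989, minus strand), 201 in Bax (chr7:45467045-45467144, minus strand) and 75 in Trp53 (chr11:69580239-69580338, plus strand).
Ccng1: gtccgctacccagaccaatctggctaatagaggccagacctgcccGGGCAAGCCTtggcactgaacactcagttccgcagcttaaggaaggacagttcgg
Mdm2: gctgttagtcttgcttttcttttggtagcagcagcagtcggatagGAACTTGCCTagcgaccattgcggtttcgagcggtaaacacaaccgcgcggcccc
Bax: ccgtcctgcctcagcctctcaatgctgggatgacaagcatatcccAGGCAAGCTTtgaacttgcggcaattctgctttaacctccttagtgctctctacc
Trp53: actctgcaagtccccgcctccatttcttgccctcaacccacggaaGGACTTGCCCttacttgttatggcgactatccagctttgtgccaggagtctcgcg

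None of the 14 windows of the 9 genes held a pair of half-sites within 13 bases of each other, the full form of the site. Of all 32851 windows 24 held it, so its absence does not set the 9 genes apart. Of 27 other p53 target genes with a window, 10 held a half-site (37.0%), and 1 of them, Cdkn1a, held the full form. These matches describe letters in the windows and do not show binding.

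The libraries held 7194325 recovered reads on day 6, 17923852 on day 4 and between 9911246 and 16503844 on the other days. Reads were recovered from the deposited log2 values, which are whole counts per transcript times 1 factor per library and were not divided by transcript length. Day 6 stood apart. Over the 12058 genes tested, the root mean square difference from the day before was 2.24 for day 6 and from 0.33 to 0.88 for the other days, and the day 6 step ran against transcript length (Spearman rho −0.70 across genes). Slopes on day are therefore given over days 0 to 5 and over days 0 to 6. Earlier steps were linked to length more weakly, with rho 0.19 for days 1 and 2 and 0.17 for day 4. For days 3 and 5 rho was 0.0002 and −0.014. For day 5 minus day 0 it was 0.22, so slopes over days 0 to 5 are not free of length. All 8 embryonic stem cell markers were in the table and all 8 stood at least 2-fold lower on day 5 than on day 0, their summed level going from 16.29 to 11.11 on the log2 scale. All 8 extraembryonic endoderm markers, 5 of 6 fibroblast markers and 3 of 6 neural markers stood at least 2-fold higher on day 5, while 1 fibroblast and 1 neural marker stood at least 2-fold lower. Their summed log2 levels went from 12.16, 9.61 and 11.46 on day 0 to 17.12, 14.96 and 13.25, and the part of this change in cell type in the values below was not tested. In such bulk RNA, fewer cells of a type and less RNA per cell cannot be told apart.

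Over days 0 to 5, Trp53 and Bak1 fell and Ccng1, Bbc3, Mdm2, Bcl2l11 and Bcl2l1 rose, while Bax and Mcl1 had no called slope. Slopes are log2 units per day, from a straight line fitted with limma to all 12058 genes and called at a Benjamini-Hochberg adjusted p under 0.05. Of the 9 genes, 5 rose and 2 fell, where 26.0% of all genes tested rose and 22.1% fell. Their median slope was 0.14, and that of all genes tested was 0.013. Over days 0 to 6, 0 of the 9 were called by limma, with or without voom weights, while 7.77% of all genes were (2.56% rising and 5.21% falling). With median-centring or the length correction 2 of the 9, Ccng1 and Bbc3, were called rising over days 0 to 6, and with quantile normalization 1, Bbc3. Of all 12058 genes tested, 590 rose and 698 fell with median-centring. It was 1244 and 1344 with the length correction, and 482 and 625 with quantile normalization. Of the 9, 3 had an unadjusted limma p under 0.05 in the fit over days 0 to 6 without these changes. Of all 12058 genes tested 3377 had one, a similar share. Over days 0 to 5, leaving out the day 0 library left 2 rising and 1 falling, and leaving out day 1 or day 4 left 3 and 1. The counts were 5 and 3 when day 2 was left out, 5 and 1 for day 3, and 4 and 1 for day 5. With 1 library per day, each p measures scatter around a line, which includes bends in the course, and not spread between cultures.

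**Figure D1:**
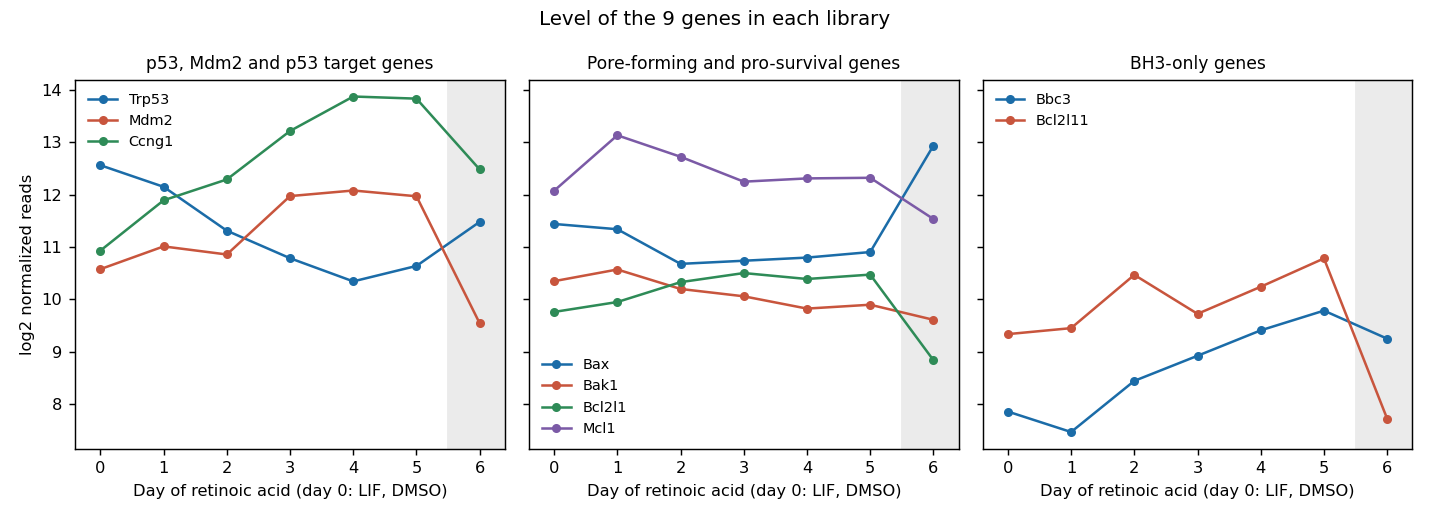
The 9 genes in 3 panels, with the day on the x axis, log2 normalized reads on the y axis and 1 point per library; the day 6 library, which stands apart by transcript length, is shaded. Trp53 went down from 12.56 on day 0 to 10.35 on day 4 while Ccng1 went up from 10.93 to 13.87.

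Trp53 transcript fell through the first days. Its level (NM_011640, chromosome 11, 69393860 to 69405375 in mm9, plus strand) in log2 normalized reads was 12.56 before treatment, then 12.15, 11.31, 10.79, 10.35, 10.64 and 11.48 on days 1 to 6. It was lower on every later day than on day 0 and lowest on day 4, when 1181 reads were counted against 3147 in the shallower day 0 library. The slope over days 0 to 5 was −0.44 ± 0.07 (SE; limma adjusted p = 0.00439), and all 14 alternative settings of this fit kept the call. With day 6 it was −0.26 ± 0.12 (limma adjusted p = 0.193). On day 4 the transcript was 4.65-fold lower than on day 0, or −2.22 on the log2 scale (95% counting interval −2.31 to −2.12). Such intervals are exact (Clopper-Pearson) and cover counting error only. A second Trp53 transcript in the table stood at most 0.086 log2 units below the first on any day, and the reads of the 2 cannot be separated.

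Mdm2, the ligase that marks p53 for destruction, rose as Trp53 fell. Its level (NM_010786, chromosome 10, 117125960 to 117147772, minus strand) was 10.58, 11.01 and 10.86 on days 0, 1 and 2, 11.97, 12.08 and 11.97 on days 3, 4 and 5, and 9.54 on day 6. Days 3 to 5 lay above days 0 to 2, and day 6 lay below all other days. The step from day 2 to day 3 was 2.17-fold (log2 1.11, interval 1.01 to 1.22), after a smaller one of 0.43 from day 0 to day 1 (interval 0.30 to 0.57). Its slope over days 0 to 5 was 0.32 ± 0.07 (limma adjusted p = 0.00936), a call lost without day 0 (0.31, adjusted p = 0.0506). With day 6 the slope was 0.0012 ± 0.17 (limma adjusted p = 0.997).

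Ccng1, which encodes cyclin G1, a partner of protein phosphatase 2A, had the largest slope of the 9. Its level (NM_009831, chromosome 11, 40562053 to 40568788, minus strand) was 10.93 before treatment and 11.89, 12.29, 13.22, 13.87, 13.83 and 12.48 on days 1 to 6. Each day up to day 4 stood above the day before, and the day 5 minus day 4 difference was −0.041 log2 units. The slope over days 0 to 5 was 0.61 ± 0.06 (limma adjusted p = 0.00229), with all 14 alternatives keeping the call, and over days 0 to 6 it was 0.36 ± 0.14 (adjusted p = 0.142). With day 6 it was called after median-centring (0.44, limma adjusted p = 0.0303) and after the length correction (0.50, adjusted p = 0.00541). Day 5 was 7.47-fold above day 0 (log2 2.90, interval 2.81 to 2.99, from 1017 and 12205 reads). Per kilobase of transcript, Ccng1 stood below Trp53 on days 0 and 1, beside it on day 2 (log2 levels of 10.49 and 10.48) and above it on days 3 to 5. On day 6 the 2 values were 10.68 and 10.65. The step to that day ran against transcript length, which division by kilobase does not remove. Since Ccng1 is the longer (3493 nt against 1783 nt), the 2 day 6 values are not compared.

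Bbc3, the BH3-only gene through which p53 most directly triggers apoptosis, rose from a low level. In log2 normalized reads it (NM_133234, chromosome 7, 16894931 to 16903682, plus strand) stood at 7.86 and 7.47 on days 0 and 1, at 8.45, 8.93, 9.41 and 9.79 on days 2 to 5, and at 9.25 on day 6. Day 1 was the lowest library, and its difference from day 0 lay within counting error (log2 −0.39, interval −0.78 to 0.0006). From day 1 to day 5 every library stood above the one before. The slope over days 0 to 5 was 0.46 ± 0.07 (limma adjusted p = 0.00396), and all 14 alternatives kept the call. With day 6 included it was 0.35 ± 0.09 (limma adjusted p = 0.0531), below 0.05 with median-centring (0.0168), quantile normalization (0.0223) or a correction for transcript length (0.0191). Day 5 was 3.80-fold above day 0, from 121 and 739 reads.

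**Figure D2:**
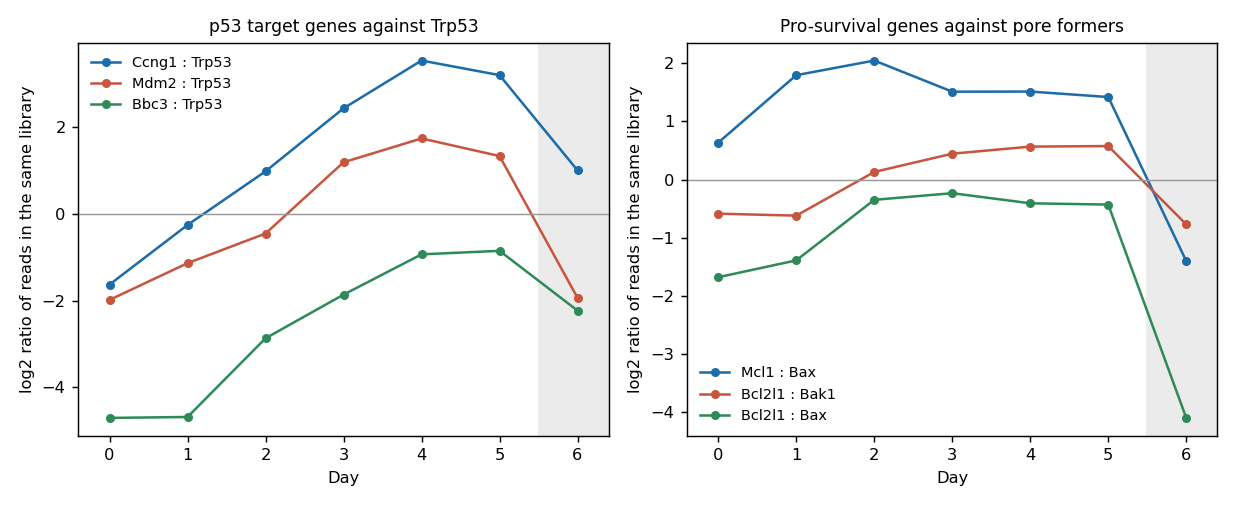
Log2 ratio of reads of 2 genes in the same library, by day, with p53 target genes against Trp53 on the left and pro-survival genes against Bax or Bak1 on the right; the day 6 library is shaded. Ccng1 against Trp53 went from −1.63 on day 0 to 3.53 on day 4.

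A ratio of 2 genes within a library does not depend on how libraries were scaled, although it still carries the genes' lengths. Only its change over days is read, and that change can carry length too, most of all on day 6. Across all genes tested, Spearman's rho with length was 0.22 for day 5 minus day 0 and −0.70 for day 6 minus day 5. The log2 ratio of Ccng1 to Trp53 was −1.63 on day 0 and 3.19 on day 5, a change of 4.82. For Mdm2 to Trp53 the ratio went from −1.98 to 1.33, and for Bbc3 to Trp53 from −4.70 to −0.85. The 3 ratios stood higher on each day from 2 to 5 than on day 0, and on day 6 they were 1.00, −1.94 and −2.23.

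Of the pore-forming genes, Bak1 fell slightly over days 0 to 5 and Bax did not have a called slope. Bax (NM_007527, chromosome 7, 52717064 to 52722268, minus strand) stood at 11.44 and 11.34 on days 0 and 1, at 10.68, 10.74, 10.80 and 10.91 on days 2 to 5, and at 12.94 on day 6. It thus moved from 1 level to a lower one between day 1 and day 2, 1.58-fold (log2 −0.66, interval −0.78 to −0.54). Its slope over days 0 to 5 was −0.12 ± 0.06 (limma adjusted p = 0.112) and over days 0 to 6 it was 0.13 ± 0.14 (adjusted p = 0.549). A test of day and day squared together over days 0 to 5, which calls bent and straight courses alike, gave an adjusted p of 0.0429 for Bax (limma F-test). That call was lost after the length correction (adjusted p = 0.147). By this F-test 6 of the 9 genes were called, and 48.1% of all genes tested.

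Bak1 (NM_007523, chromosome 17, 27156756 to 27165571, minus strand) was at 10.35, 10.57, 10.20, 10.06, 9.83, 9.90 and 9.61 on days 0 to 6. Day 1 was the highest library, and days 2 to 6 all lay below day 0. For Bak1 on day 2, the difference from day 0 lay within counting error (log2 −0.15, interval −0.31 to 0.0074). Its slope over days 0 to 5 was −0.13 ± 0.04 (limma adjusted p = 0.0350) and over days 0 to 6 it was −0.14 ± 0.06 (adjusted p = 0.174). The call over days 0 to 5 was lost on leaving out day 0, 1, 3, 4 or 5, with limma adjusted p from 0.0505 to 0.117.

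Among the guardians, Bcl2l1 rose modestly and Mcl1 had an early peak. Bcl2l1 (NM_009743, chromosome 2, 152606403 to 152657418, minus strand) was at 9.76, 9.95, 10.33, 10.50, 10.39, 10.47 and 8.84 on days 0 to 6. It stood on a plateau from day 2 to day 5, above days 0 and 1 and well above day 6. The slope over days 0 to 5 was 0.14 ± 0.04 (limma adjusted p = 0.0289), and over days 0 to 6 it was −0.059 ± 0.11 (adjusted p = 0.753). The call was lost with median-centring (adjusted p = 0.0838) and quantile normalization (0.0524) and without day 0 (0.160), day 1 (0.0716) or day 4 (0.0755). Long and short splice forms of Bcl-x, which act in opposite ways, were not told apart, since the table gave 1 transcript.

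Mcl1, a short-lived protein whose loss frees Bak1, was the only 1 of the 9 at least 2-fold above day 0 after the first day. Its level (NM_008562, chromosome 3, 95462642 to 95467101, plus strand) was 12.08, 13.13 and 12.72 on days 0 to 2, 12.25, 12.31 and 12.32 on days 3 to 5, and 11.54 on day 6. Day 1 was the highest library and day 3 was back near day 0. The day 1 difference was 2.08-fold (log2 1.06, interval 0.99 to 1.13, from 2246 and 5218 reads), and 9.15% of all genes tested stood at least 2-fold higher on that day. Ccng1 came close, at 1.95-fold above day 0 on day 1 (log2 0.96, interval 0.85 to 1.07). None of the 9 was at least 2-fold lower, as 3.99% of all genes were. The day 1 difference of Mcl1 was 0.93 with median-centring and 0.89 after the length correction, under 2-fold. A line over days 0 to 5 had a slope of −0.049 ± 0.08 (limma adjusted p = 0.640).

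The right panel of the ratio plot sets these genes against each other. The log2 ratio of Bcl2l1 to Bax was −1.68 at the start, −1.39 a day later, −0.35 on day 2 and −0.43 on day 5. That of Bcl2l1 to Bak1 went from −0.59 on day 0 to 0.57 on day 5, and that of Mcl1 to Bax from 0.63 on day 0 to 2.04 on day 2 and 1.42 on day 5. In the 4 libraries of days 2 to 5, all 3 ratios were higher than in the day 0 library. In the day 6 library, which stood apart by transcript length, all 3 were lower than on day 0. They were −4.10 for Bcl2l1 to Bax, −0.77 for Bcl2l1 to Bak1 and −1.40 for Mcl1 to Bax.

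Bcl2l11, whose product Bim binds all guardians of the family, rose over days 0 to 5 with an uneven course. Its highest transcript (NM_207680, chromosome 2, 127951773 to 127988283, plus strand) was at 9.34, 9.45, 10.47, 9.73, 10.24, 10.78 and 7.72 on days 0 to 6. Day 2 stood above both its neighbours, the drop to day 3 being 1.67-fold (log2 −0.74, interval −0.92 to −0.57). The slope over days 0 to 5 was 0.25 ± 0.08 (limma adjusted p = 0.0345) and over days 0 to 6 it was −0.086 ± 0.18 (adjusted p = 0.772). The call was lost with median-centring (adjusted p = 0.0505), after the length correction (0.0714) and without day 0 (0.134), day 1 (0.0875), day 4 (0.0725) or day 5 (0.165). The 3 Bcl2l11 transcripts in the table lay between 10.70 and 10.78 on day 5, and their reads cannot be separated. Against Mcl1, the log2 ratio of Bcl2l11 was −2.74 on day 0, −3.68 on day 1 and −1.54 on day 5.

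**Figure D3:**
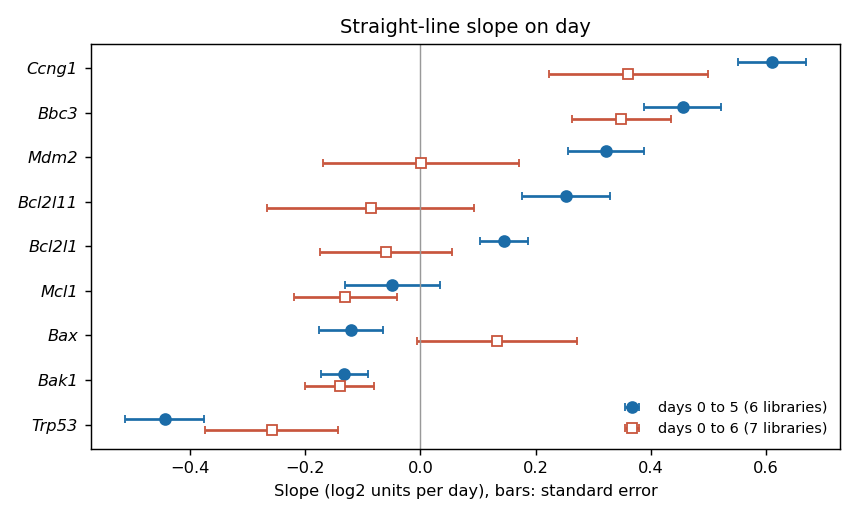
Slope of each of the 9 genes in log2 units per day, over days 0 to 5 (filled circles, 6 libraries) and over days 0 to 6 (open squares, 7 libraries), with bars of 1 standard error. Ccng1 had the highest slope over days 0 to 5 at 0.61 and Trp53 the lowest at −0.44, and with day 6 the bars are wider.

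By size alone, 4 of the 9 genes (Ccng1, Bbc3, Bcl2l11 and Mdm2) stood at least 2-fold higher on day 5 than on day 0 and 1 (Trp53) at least 2-fold lower. Of all genes tested, 25.9% were as much higher and 15.6% as much lower. The library median was 0.29 log2 units higher on day 5 than on day 0, and after median-centring the day 5 differences were 2.61 for Ccng1, 1.64 for Bbc3, 1.16 for Bcl2l11, 1.10 for Mdm2 and −2.21 for Trp53. After the length correction that of Bcl2l11 was 0.99, just under 2-fold. These differences between 2 libraries have no replicate check.

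Levels can be set against each other only per length, here as log2 normalized reads per kilobase of transcript. On day 0 the order was Trp53 (11.73), Bax (11.63), Mcl1 (10.27), Bak1 (9.34), Ccng1 (9.13), Mdm2 (8.98), Bcl2l1 (8.52), Bcl2l11 (7.01) and Bbc3 (6.88). On day 5 it was Ccng1 (12.03), Bax (11.10), Mcl1 (10.52), Mdm2 (10.37), Trp53 (9.81), Bcl2l1 (9.23), Bak1 (8.89), Bbc3 (8.80) and Bcl2l11 (8.45). Ccng1 went from the fifth place to the first and Trp53 from the first to the fifth. Neighbours in either order were not compared, since no spread between cultures was measured.

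The step from day 5 to day 6 largely followed the order of transcript lengths among the 9 genes. Bax, the shortest at 875 nt, had a day 6 minus day 5 difference of 2.03 log2 units, and Trp53 (1783 nt) one of 0.84. The difference was −0.54 for Bbc3 (1979 nt), −0.29 for Bak1 (2008 nt), −1.63 for Bcl2l1 (2374 nt) and −2.42 for Mdm2 (3039 nt). It was −0.79 for Mcl1 (3491 nt), −1.35 for Ccng1 (3493 nt) and −3.06 for Bcl2l11, the longest at 5041 nt. Across the 9 genes Spearman's rho with length was −0.85, a description of 2 libraries. At least 2-fold, 1 of the 9 was higher and 4 were lower, where 17.4% of all genes tested were higher and 51.1% lower. The library median moved by −1.15 in this step, and with median-centring the differences of Bbc3, Bak1 and Mcl1 changed sign, to 0.61, 0.86 and 0.36. After a correction for length the day 6 differences were 0.13 for Bax, 0.65 for Trp53, 0.25 for Ccng1, 0.81 for Mcl1, −0.15 for Bak1, −0.44 for Bbc3, −0.71 for Bcl2l11, −1.04 for Bcl2l1 and −1.17 for Mdm2. With it, only Mdm2 and Bcl2l1 of the 9 still stood at least 2-fold from day 5.

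**Figure D4:**
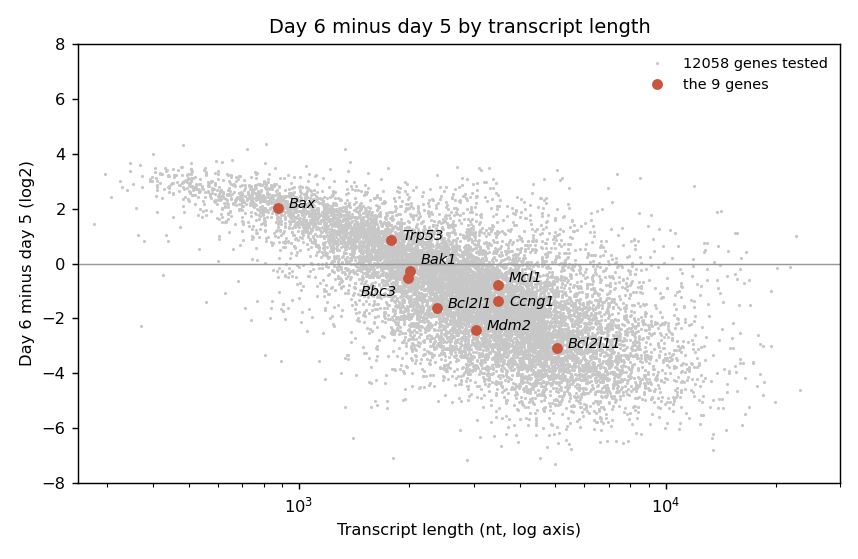
Day 6 minus day 5 in log2 units (y axis) against transcript length in nt (x axis, log scale), with 12058 genes as grey points, 3 of them outside the axes, and the 9 genes in red. Bax lies at 2.03 at the short end of the 9 and Bcl2l11 at −3.06 at the long end.

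Among 36 other p53 target genes of the table, 22 rose and 3 fell over days 0 to 5, with 11 not called, where 26.0% of all genes tested rose and 22.1% fell. The list was written with earlier results of these data known. Its median slope was 0.22, and that of all genes tested 0.013. Cdkn1a, the cyclin-dependent kinase inhibitor p21, went from 8.24 on day 0 to 11.94 on day 5 (slope 0.85 ± 0.10, limma adjusted p = 0.00291). The death receptor gene Fas had 3 reads on day 0 and 103 on day 5 (slope 1.01 ± 0.15, limma adjusted p = 0.00402), and the matrix gene Thbs1 a slope of 0.71. Pmaip1, the BH3-only gene Noxa, rose from 6.33 to 8.12 (slope 0.43, limma adjusted p = 0.00646) and Apaf1, the scaffold of the apoptosome, from 9.36 to 11.68 (slope 0.50, adjusted p = 0.00815). The kinase gene Plk3 (slope −0.66), the nuclear body gene Pml (−0.52) and the receptor kinase gene Epha2 (−0.36) fell. Leaving out 1 library gave from 17 rising genes (without day 0) to 23 (without day 2), and from 1 falling gene (without day 4) to 4 (without day 2). With median-centring 19 rose and 5 fell, and of all 12058 genes tested 2543 rose and 3572 fell. With day 6 limma called 4 rising and 1 falling, where 2.56% of all genes tested rose and 5.21% fell. Those counts were 9 and 2 with median-centring or the length correction, 8 and 2 with quantile normalization, and 0 and 0 without day 0, 1, 2 or 4. They were 1 and 0 without day 3, and 2 and 1 without day 5.

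Regulators of p53 went both ways. Of 19 in the table, 4 rose and 7 fell over days 0 to 5, where 26.0% of all genes tested rose and 22.1% fell. Their median slope was −0.090. Cdkn2a, which encodes the Mdm2 inhibitor Arf and the kinase inhibitor p16, went from 6.47 to 10.37 on day 5 (slope 0.75), the kinase gene Hipk2 rose by 0.41 per day, and Ppm1d, a phosphatase that switches p53 off and is itself a p53 target, by 0.26. The p53 relative Trp73 (slope −0.44), the deacetylase gene Sirt1 (−0.30) and the deubiquitinase gene Usp7 (−0.27) fell. Mdm4, the partner of Mdm2, had a slope of 0.050 (limma adjusted p = 0.349). Without day 0 the list held 1 rising and 6 falling genes, and without day 4 it held 2 and 5. It held 4 and 9 with median-centring, 4 and 8 with quantile normalization, and 3 and 10 with the length correction. Of all 12058 genes tested, 2543 rose and 3572 fell with median-centring. That was 2581 and 3349 with quantile normalization, and 2892 and 2967 with the length correction. With day 6 the list held 1 and 2, with the length correction 2 and 4, and without day 0 or day 1 it held 0 and 0. Without day 2, 3 or 4 it held 1 and 0 over those days. The leave-out counts are to be read beside those of all genes tested, given above for the same settings.

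Of 14 other genes listed for the Bcl2 family and its binding partners, 4 rose and 1 fell over days 0 to 5. Among all genes tested 26.0% rose and 22.1% fell, so the rising share was near that of all genes. The rising ones were the mitophagy gene Bnip3 (slope 0.44), Pmaip1, Bcl2l13 (0.31) and Bnip2 (0.18), and the BH3-only gene Bid (−0.28) fell. The median slope was 0.11. Bad, another BH3-only gene, had a slope of 0.13 (limma adjusted p = 0.0601). Without day 0 it was 2 rising and 0 falling, without day 4 it was 3 and 0, without day 2 it was 5 and 2, and with median-centring 4 and 2. With day 6 it was 0 and 1, Bid again, with an adjusted p of 0.0472. Over those 7 libraries the counts were 2 and 0 with median-centring, 1 and 0 with quantile normalization and 3 and 1 with the length correction. They were 0 and 0 without day 0, 1, 2, 3 or 4. The counts of all genes tested in these settings, given above, were also low in those leave-outs.

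Of 24 genes of the caspase pathway in the table, 6 rose and 7 fell over days 0 to 5, with a median slope of −0.067. These shares were near those of all genes tested, 26.0% rising and 22.1% falling. The executioner caspase gene Casp6 went from 5.64 to 8.98 on day 5 (slope 0.64), Apaf1 is described above, and the caspase-8 inhibitor gene Cflar rose by 0.34 per day. The repair enzyme and caspase substrate gene Parp1 (slope −0.37), the mitochondrial nuclease gene Endog (−0.35), the cytochrome c gene Cycs (−0.25) and the survivin gene Birc5 (−0.19) fell. Without day 0 there were 3 rising and 5 falling, without day 1 it was 4 and 5, and without day 4 it was 3 and 4. With median-centring there were 4 and 11. Over days 0 to 6 there were 1 and 1, and with the length correction 2 and 1. Those over days 0 to 6 became 0 and 0 without day 0, 1 or 4, and 1 and 0 without day 2 or 3. For all genes tested, the counts in the same settings are given above and were also low in these leave-outs.

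**Figure D5:**
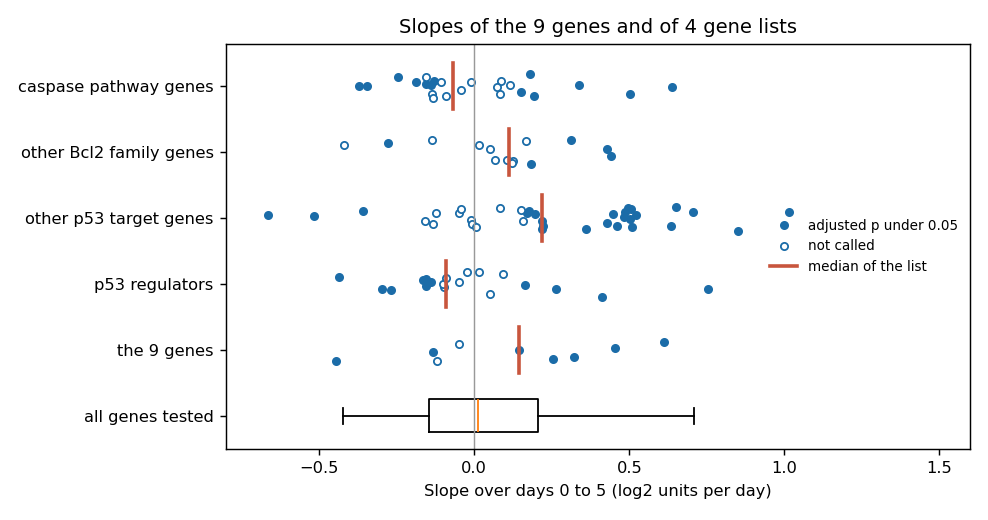
Slope over days 0 to 5 in log2 units per day for the 9 genes and for 4 gene lists, 1 point per gene, filled where the adjusted p was under 0.05, with the list median as a red bar; the box at the bottom shows all genes tested, with whiskers at the 5th and 95th percentiles. The other p53 target genes have the highest median of the 4 lists, 0.22.

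The 5 genes whose course was most like that of Trp53 over the 7 libraries, by Pearson's r of log2 values, were Nosip (r = 0.997), Eif3d (0.996), Tuba1b (0.992), Ptges3 (0.991) and Tarbp2 (0.991). Their transcripts are from 1566 to 2143 nt long, and that of Trp53 is 1783 nt long. The points share libraries and scaling, so r is a description of these 7 libraries.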

How the data were processed

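Per the file headers and the labels, the authors deposited normalized reads on the log2 scale for each RefSeq transcript, with a column for each day. Reads were aligned with BWA 0.7.3 to mm9, per the submitters' processing notes, and no source used here gives the counting tool, strand setting or scaling. Raised from the log, 100% of the values of at most 1000 reads were whole multiples, within 0.05, of the library's lowest value, taken as 1 read. A whole number added before scaling would look the same.

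With 1 transcript per symbol, genes with a mean of at least 10 reads per library were kept, 12058 of 12071, all 9 described genes among them. This minimum is lower than in an earlier treatment of these data. Lines on day were fitted with limma 3.58.1 in R 4.3.3 (mean trend, p-values adjusted by Benjamini-Hochberg across the genes kept) and tested on simulated data. No count model was used. Genes and lists were chosen with earlier results of these data known. Of each list, the text names the 3 largest called slopes in each direction, plus fixed examples, of which 1 is not reported here; Bnip2 was added after its values were seen. Other filters, scalings, a length correction, summed transcripts, 1 added read, voom weights and leaving out each library were tried. No other listed gene overlapped the positions of the 9. Positions are mm9 from the table; promoters are GRCm38.p6.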

Additional observations from a re-analysis of the deposited data

How the results depend on the processing

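Percents in this paragraph are rising genes as a share of the genes called, not of all genes tested. Of all genes tested, limma called 309 rising and 628 falling over days 0 to 6 (33.0% rising). It called 116 and 274 above the 40th percentile of mean level (7242 genes tested), 590 rising with median-centring (45.8%), 482 rising with quantile normalization (43.5%), and 1244 and 1344 with the length correction (48.1%). Leaving out 1 library gave from 0 (without day 1, 2336 genes at an unadjusted p under 0.05) to 3134 rising and from 0 to 2662 falling (without day 6). Over days 0 to 5 the main counts were 3134 and 2662 (54.1% rising), with 1858 rising above the 40th percentile, 41.6% rising with median-centring and 43.5% with quantile normalization. Leaving out 1 library gave 1756 to 3380 rising and 1521 to 2677 falling. The F-test called 5797 genes, and 3794 above the 40th percentile. On day 1, 1103 genes were at least 2-fold higher, and 688 with quantile normalization. From day 5 to day 6, 2095 were higher and 6163 lower, against 4117 and 3691 with median-centring, 3794 and 3609 with quantile normalization, and 2778 lower with the length correction. The stricter filter tests fewer genes; for the other settings the cause was not tested. Without day 6 the slopes of Bcl2l1 (0.14) and Bcl2l11 (0.25) turned from negative to positive and were called; over the 7 leave-outs they ran from −0.15 to 0.14 and from −0.21 to 0.25. The day 6 difference of Ccng1 turned to 0.25 with the length correction. In the 14 alternatives over days 0 to 5, Trp53, Ccng1 and Bbc3 were called in 14, Mdm2 in 13, Bak1 and Bcl2l1 in 9, Bcl2l11 in 8, Bax in 1 and Mcl1 in 0. No paired analysis was possible because each day had 1 library. Depth limits Bbc3 most over days 0 to 5, at 103 to 739 reads, and on day 6 Bcl2l11, at 77.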
